A study of Mus musculus with 4 samples.

Results

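The 10 genes of neuropeptides that sympathetic tumour cells can make were followed in 4 primary mouse neuroblastomas: Npy, Vip, Gal, Penk, Sst, Cartpt, Adcyap1, Tac1, Calca and Calcb. The genes were chosen by name, with earlier results of these tumours known, and Gal and Vip drew attention by their range between tumours. A gene was read from a probe set that the platform annotation ties to that gene alone, and 9 of the 10 genes had such a probe set, of 22180 genes measured in all. Calca was not analysed here. All 4 tumours form 1 group: each is labelled Alk mutant, TH-MYCN and Stat6-/-, and the strain is a C57BL/6 by 129Sv/J mixture. In this model the tyrosine hydroxylase promoter drives MYCN in cells of the sympathetic lineage, where neuroblastoma arises. The sources used here name neither the Alk mutation nor the animals' ages. There is no group with intact Stat6, so nothing below bears on what Stat6 does to these genes.

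Neuropeptides are cut from larger precursor proteins in the secretory pathway, stored in dense core granules and released beside the classical transmitter. Sympathetic neurons make noradrenaline, and most store neuropeptide Y with it. The smaller cholinergic class makes vasoactive intestinal peptide instead, and galanin is known for its rise in sympathetic neurons after their axons are cut. The peptides act on G protein-coupled receptors on neighbouring cells or on the cell that released them.

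Among them, 5 precursor genes were detected: Npy, Vip, Gal, Adcyap1 and Cartpt. Detected means that the mean over the 4 tumours lay above 6.17 log2 units, the 95th percentile of the means of 1390 genes for smell and pheromone (olfactory and vomeronasal) receptors, taken as silent in such tissue. Of all genes, 40.5% passed this floor, against 5 of the 9 neuropeptide genes, and these 5 lay above it in each of the 4 tumours. Penk, Sst, Tac1 and Calcb lay below it in each tumour. Each of the 5 detected genes measured highest in tumour 3, where 11.0% of all detected genes had their highest value. Their lowest values fell in tumour 4 for 3 genes (Npy, Gal and Adcyap1), as for 38.6% of detected genes, and in tumour 2 for Vip and Cartpt, as for 17.8%. For Cartpt the lead over tumour 4 was 0.0032 log2 units, which is no difference, so a maximum in tumour 3 alone holds for 4 genes. Of the 5, 3 (Vip, Gal and Npy) ranged over at least 1 log2 unit (2-fold) between tumours, as 4.26% of all detected genes did. Since Gal and Vip were proposed for this range, these counts describe the genes and test nothing.

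**Figure D1:**
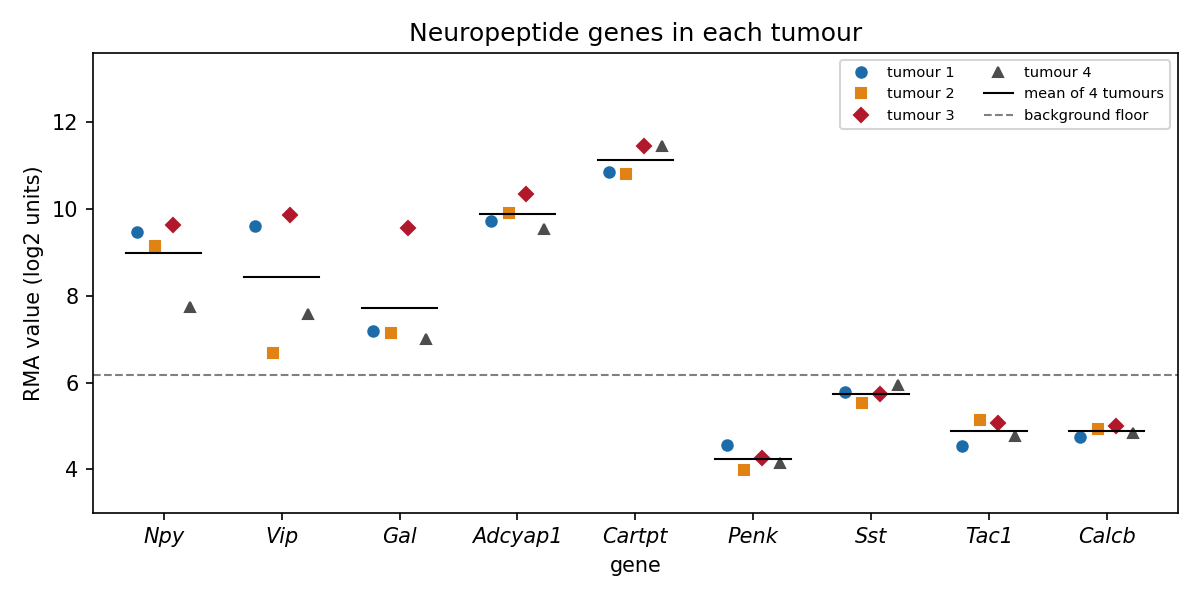
Each point is the RMA value (vertical axis, log2 units) of a neuropeptide gene (horizontal axis) in 1 tumour, with bars for the mean of 4 tumours and a dashed line for the background floor of 6.17. Vip splits into tumours 1 and 3 above tumours 2 and 4, Gal stands high in tumour 3 alone, Npy stands low in tumour 4, and Penk, Sst, Tac1 and Calcb lie under the floor. Levels of different genes come from different probe sets and cannot be compared with each other.

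Vip encodes the precursor of vasoactive intestinal peptide, a dilator of vessels and a transmitter of cholinergic sympathetic and parasympathetic neurons. It measured 9.61, 6.69, 9.85 and 7.58 log2 units in tumours 1 to 4, with a mean of 8.43 ± 1.55 (SD, n = 4). The tumours fell into a high pair, 1 and 3, and a low pair, 2 and 4. The highest tumour was 8.99-fold above the lowest, and the gap between tumour 1 and tumour 4, which separates the pairs, was 4.08-fold. Tumours 1 and 3 were 0.25 log2 units apart, while tumours 2 and 4 were 0.89 apart.

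Gal encodes the precursor of galanin, a peptide that can inhibit release of other transmitters and that regenerating sympathetic neurons make. It measured 7.18, 7.15, 9.56 and 7.01 log2 units in tumours 1 to 4, with a mean of 7.72 ± 1.23 (SD, n = 4). Tumour 3 stood 5.19-fold above tumour 1, the next highest, and the other three lay within 0.18 log2 units of each other. The ratio of that gap to the whole range (Dixon's ratio) passed its 95% critical value for 4 samples in Gal alone of the 5, as it did in 3.83% of all detected genes. Leaving out tumour 3 left the gene with almost no spread.

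Npy encodes the precursor of neuropeptide Y, a vasoconstrictor released with noradrenaline. It measured 9.46, 9.15, 9.62 and 7.75 log2 units in tumours 1 to 4, with a mean of 9.00 ± 0.85 (SD, n = 4). Tumour 4 was 2.63-fold below tumour 2, the next lowest, and tumours 1 to 3 lay within 0.48 log2 units. The labels do not give the sex of the animals, but tumour 4 reads as female and the others as male: Xist, which coats the inactive X, measured 10.13 there and 3.89 to 3.95 in tumours 1 to 3, while the Y-linked Eif2s3y measured 3.90 there and 7.47 to 7.89 in the others, and Uty 3.89 there and 7.24 to 7.58 in the others. The low Npy and the sex of tumour 4 cannot be told apart.

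Adcyap1 encodes the precursor of PACAP, the peptide of the preganglionic neurons that excite sympathetic and chromaffin cells. It measured 9.72, 9.91, 10.34 and 9.54 log2 units in tumours 1 to 4, with a mean of 9.88 ± 0.34 (SD, n = 4). Tumour 3 was 1.34-fold above tumour 2, and the neighbours below it in the order were each less than 0.19 apart. Cartpt encodes the precursor of the cocaine- and amphetamine-regulated transcript peptides, which neurons and neuroendocrine cells make. It measured 10.84, 10.80, 11.45 and 11.45 log2 units in tumours 1 to 4, with a mean of 11.14 ± 0.36 (SD, n = 4). Here tumours 3 and 4 formed the high pair and lay 1.52-fold above tumour 1, a much smaller step than that of Vip and with other partners.

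The 4 other genes gave signals that cannot be told from background. Penk, the enkephalin precursor and a product of chromaffin cells, measured 4.56, 3.99, 4.27 and 4.14 log2 units in tumours 1 to 4. Sst, the somatostatin precursor, came closest to the floor, with 5.77, 5.53, 5.73 and 5.93. Tac1, the precursor of substance P, measured 4.55, 5.13, 5.06 and 4.77, and Calcb, the precursor of the beta form of calcitonin gene-related peptide (CGRP), 4.74, 4.93, 4.99 and 4.85. None of the 4 ranged over more than 0.58 log2 units. A gene under the floor is undetermined, not shown to be silent. Tac1, Calca and Calcb are peptides of sensory neurons. From a list of sensory neuron markers 0 of 9 measured genes passed the floor, against 40.5% of all genes. Their means lay between 3.96 and 5.48. The defining channels Scn10a and Trpv1 had means of 4.02 and 4.41.

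The stretches just upstream of the genes are shown for the 5 detected precursors and for Sst, to show where the letters of a cyclic AMP response element stand in them. That element, bound by CREB and known from the Vip and Sst genes, is spelled TGACGTCA, and its core TGACG. RefSeq (GRCm38.p6) gave promoters for 8 of the 10 genes, all but Penk and Calcb. Each line holds the 250 bases before a transcript start, 5′ to 3′ on the gene's strand. Capitals mark TGACG on either strand, TGACGTCA, and the TATA motif TATAAA. For Adcyap1 the more downstream of its RefSeq starts is shown.
Vip, chr10:5638968-5639217, plus strand: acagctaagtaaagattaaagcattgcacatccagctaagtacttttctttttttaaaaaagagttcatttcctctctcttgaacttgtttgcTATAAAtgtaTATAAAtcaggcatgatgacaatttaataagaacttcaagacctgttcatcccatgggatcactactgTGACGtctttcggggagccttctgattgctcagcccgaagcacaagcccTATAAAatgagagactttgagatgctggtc
Gal, chr19:3414545-3414794, minus strand: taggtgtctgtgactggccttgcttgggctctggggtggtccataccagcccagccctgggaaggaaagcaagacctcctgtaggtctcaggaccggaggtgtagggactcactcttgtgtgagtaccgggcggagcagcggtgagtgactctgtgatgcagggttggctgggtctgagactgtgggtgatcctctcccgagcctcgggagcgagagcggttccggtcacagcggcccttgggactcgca
Npy, chr6:49822460-49822709, plus strand: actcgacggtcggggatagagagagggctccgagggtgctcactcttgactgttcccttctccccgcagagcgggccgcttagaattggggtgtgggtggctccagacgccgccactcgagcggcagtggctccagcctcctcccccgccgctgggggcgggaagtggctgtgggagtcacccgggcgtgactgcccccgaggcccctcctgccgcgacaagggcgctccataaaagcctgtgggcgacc
Adcyap1, chr17:93198918-93199167, plus strand: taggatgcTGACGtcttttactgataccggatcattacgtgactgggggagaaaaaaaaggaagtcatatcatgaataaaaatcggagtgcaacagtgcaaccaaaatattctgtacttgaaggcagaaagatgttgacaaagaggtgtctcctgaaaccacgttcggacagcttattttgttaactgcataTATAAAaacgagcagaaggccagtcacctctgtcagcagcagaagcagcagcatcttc
Cartpt, chr13:99900684-99900933, minus strand: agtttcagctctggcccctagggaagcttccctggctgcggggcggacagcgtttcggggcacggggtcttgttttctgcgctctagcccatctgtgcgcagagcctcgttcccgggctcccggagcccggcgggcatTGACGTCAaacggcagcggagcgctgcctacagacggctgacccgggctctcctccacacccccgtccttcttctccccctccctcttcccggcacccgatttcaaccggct
Sst, chr16:23890845-23891094, minus strand: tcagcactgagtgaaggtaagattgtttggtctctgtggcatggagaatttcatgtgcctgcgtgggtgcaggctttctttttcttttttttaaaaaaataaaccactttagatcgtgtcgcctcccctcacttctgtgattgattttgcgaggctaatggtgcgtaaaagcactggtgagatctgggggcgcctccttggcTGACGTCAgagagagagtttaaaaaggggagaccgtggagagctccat

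TGACGTCA stood in the Cartpt and Sst windows, where it began 112 and 48 bases before the start. Of 32851 RefSeq promoters, 1.55% held it in the same window on either strand. The core TGACG, which lies within TGACGTCA and overlaps itself on the other strand there, stood in 6 of the 8 genes' windows and in 17.8% of all promoters. In Vip it began 79 bases before the start, and in the Adcyap1 window shown 242 bases before it. Neither Gal nor Npy held it. The TATA motif, TATAAA, stood in the windows of Vip, 30 bases before the start and at more distant places, and of Adcyap1, 58 bases before it, and in 12.4% of all promoters. Of the other motifs searched on either strand, TGACGTAA (0.447% of all promoters), the AP-1 site TGACTCA (4.46%) and the STAT site TTCNNNGAA (7.02%) were in none of the 8 genes' windows. TGCGTCA, the core of the enkephalin element, which contains the TGACG core on its other strand, was in those of Tac1 and Calca (1.75%), and the E-box CACGTG in that of Tac1 (6.02%). A match is a run of letters and no measured binding site, and its absence from this window says nothing about the factor.

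Set against all 8986 detected genes, Vip ranged more widely than 99.9% of them, Gal than 99.8% and Npy than 99.5%. Adcyap1, at a range of 0.79 log2 units, exceeded 90.3%, and Cartpt, at 0.65, exceeded 82.6%. Ranges can depend on level, so each gene was also set against the 500 detected genes nearest to it in mean. There the shares were 99.8% for Vip, 100% for Gal, 99.2% for Npy, 91.4% for Adcyap1 and 87.2% for Cartpt. Gal and Vip had drawn attention by their range, so both sets of ranks describe the genes and test nothing. The medians of detected genes were themselves offset between arrays, with deviations of 0.12, 0.04, -0.09 and -0.08 log2 units in tumours 1 to 4. In tumour 3, where Npy, Vip, Gal and Adcyap1 were highest, the typical detected gene thus lay slightly low.

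**Figure D2:**
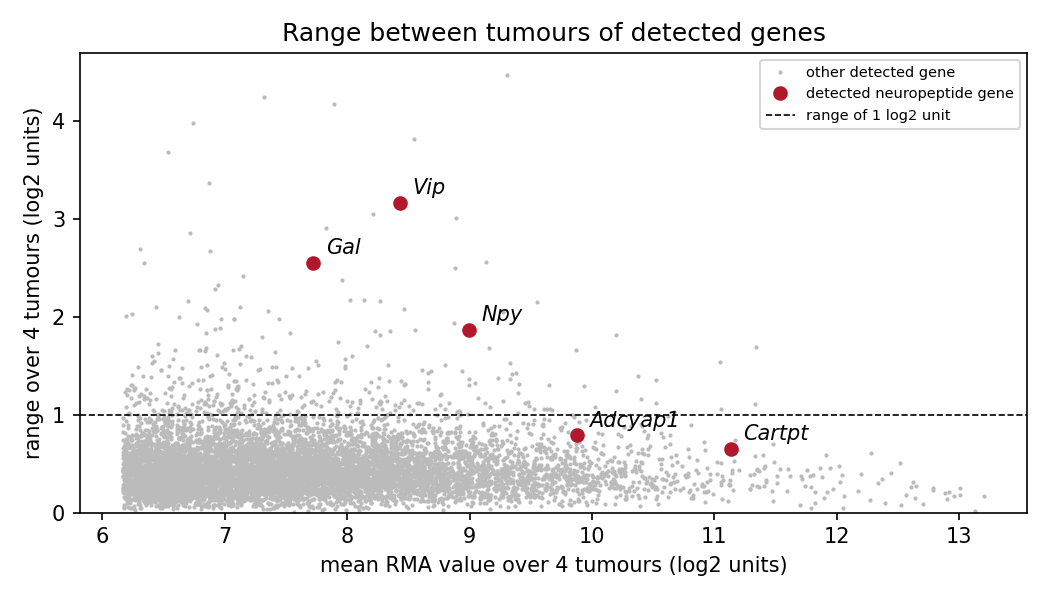
Each grey point is a detected gene, with its mean RMA value over the 4 tumours (horizontal axis, log2 units) and its range over them (vertical axis, log2 units). The red points are the 5 detected neuropeptide genes: Vip at 3.17, Gal at 2.55 and Npy at 1.87 lie above the dashed line at 1 log2 unit, Adcyap1 and Cartpt under it.

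The 5 genes did not share 1 order of tumours. Npy, Vip, Gal and Adcyap1 were highest in tumour 3, and Cartpt in tumours 3 and 4 alike. As deposited, Npy and Gal had the same order from low to high, tumours 4, 2, 1 and 3, but by different steps. Npy fell away at the bottom in tumour 4 and Gal stood out at the top in tumour 3. In Gal tumours 1 and 2 lay only 0.04 log2 units apart, and further quantile normalization reversed them. That part of the order is thus not firm. Of the 10 pairs that the 5 genes form, Cartpt and Adcyap1 were closest in their deviations from their own means, with a root mean square difference of 0.39 log2 units over 4 tumours, and Vip and Cartpt the farthest, at 1.30. Between tumours 4 and 3, 3 of the 5 genes differed by at least 2-fold, where 1.03% of detected genes did: Npy by -1.87, Vip by -2.28 and Gal by -2.55 log2 units (tumour 4 minus tumour 3). Between tumours 3 and 2, 2 genes did, Vip (3.17) and Gal (2.41, tumour 3 minus tumour 2), where 1.30% of detected genes did. Between tumours 4 and 1 it was Npy (-1.71) and Vip (-2.03, tumour 4 minus tumour 1), with 1.77% of detected genes. In the other pairs 1 gene passed 2-fold: Vip between tumours 2 and 1 (-2.92, tumour 2 minus tumour 1, with 0.556% of detected genes), Gal between tumours 3 and 1 (2.38, tumour 3 minus tumour 1, with 1.47%) and Npy between tumours 4 and 2 (-1.39, tumour 4 minus tumour 2, with 1.71%). These pairs share tumours and Gal and Vip were proposed for their range, so the counts are a description. In bulk tissue, fewer cells of a type and less RNA per cell cannot be told apart.

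**Figure D3:**
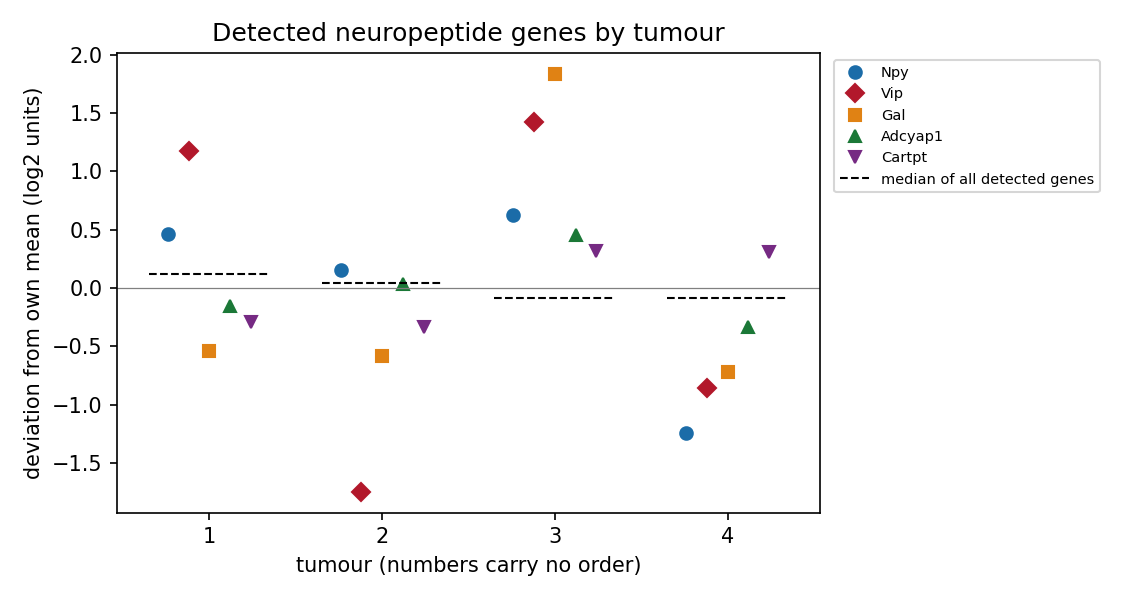
Each point is a detected neuropeptide gene's deviation from its own 4-tumour mean (vertical axis, log2 units) in each tumour (horizontal axis), and the dashed bars are the median deviation of all detected genes. All 5 genes lie above the bar in tumour 3, from 0.32 for Cartpt up to 1.84 for Gal, and spread widely in the other tumours.

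Genes with a pattern most like each variable precursor were sought among the 382 other detected genes that ranged over at least 1 log2 unit, by the root mean square difference of deviations over 4 tumours. Nearest to Npy were Nr4a1, an orphan nuclear receptor induced by activity (0.23 log2 units), and the small nucleolar RNAs Snord1b (0.23) and Snora15 (0.23). Nr4a1 measured 8.05, 7.71, 8.40 and 6.89 in tumours 1 to 4, low in tumour 4 as Npy was. Nearest to Vip were Htr2b, a serotonin receptor (0.42), Ahcy, an enzyme of the methionine cycle (0.67), and Thy1, a neuronal surface glycoprotein (0.79). Htr2b measured 7.77, 6.00, 8.41 and 6.42, with the high pair of tumours 1 and 3 that Vip showed. Nearest to Gal were Rpl3, a ribosomal protein gene (0.36), Ghrh (0.44) and Thy1 (0.50). Rpl3 measured 9.44, 9.52, 11.10 and 9.44, high in tumour 3 alone. With 4 tumours many genes can share an order, so likeness here is a description.

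Other peptide precursors were mostly under the floor: of 45 measured, 6 were detected (13.3%, against 40.5% of all genes). Ghrh, the precursor of growth hormone-releasing hormone, which belongs to the same peptide superfamily as VIP and PACAP, measured 6.69, 6.04, 8.10 and 6.60 log2 units in tumours 1 to 4 and was highest in tumour 3. Pnoc, the nociceptin precursor, went another way, with 7.79, 6.03, 5.79 and 8.08, high in tumours 1 and 4. Vgf, a granule protein cut into several peptides, measured 8.14, 7.58, 8.67 and 7.69, again highest in tumour 3. Avp, the vasopressin precursor, measured 6.53 ± 0.15, and Gip, an incretin, and Nppc, the C-type natriuretic peptide precursor, lay at the floor, with 6.17 ± 0.29 and 6.20 ± 0.18 (SD, n = 4).

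The receptor list for these peptides also held Oprl1, the receptor for nociceptin, Calcr and the partner protein Crcp. Of its 28 measured genes, 7 were detected, Oprl1 and Crcp among them (25.0%, against 40.5% of all genes). Adcyap1r1, the PAC1 receptor for PACAP, was steady, at 9.03, 8.83, 8.91 and 9.04 log2 units in tumours 1 to 4, a mean of 8.95 ± 0.10 (SD, n = 4). Its ligand gene Adcyap1 was detected in the same tumours. The receptors that VIP and PACAP share, Vipr1 and Vipr2, lay under the floor at 5.37 ± 0.22 and 5.12 ± 0.10 (SD, n = 4), also in tumours 1 and 3, where Vip was high. Of 3 galanin receptor genes listed, only 2 were measured. Galr1 measured 5.43, 5.63, 5.76 and 6.07 and Galr2 5.17, 5.01, 4.86 and 5.31, all under the floor. Gal was thus high in tumour 3 while neither of these receptors passed the floor there.

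Npy2r, a presynaptic receptor for neuropeptide Y, measured 7.68, 7.60, 6.03 and 6.03 log2 units in tumours 1 to 4, above the floor in tumours 1 and 2 and below it in tumours 3 and 4. Its split, 3.14-fold from highest to lowest, did not follow Npy, which was high in tumour 3 and low in tumour 4. Npy1r, Npy4r, Npy5r and Npy6r had means between 3.97 and 5.44, under the floor. Calcrl, the receptor subunit for CGRP and adrenomedullin, measured 7.45, 4.75, 5.59 and 7.44, high in tumours 1 and 4. Of its partners, Ramp1, Ramp2 and Ramp3 had means of 5.51, 5.27 and 4.86, under the floor. Calcr, from the same list, also lay under it at 4.18. Crcp, a protein that couples the receptor to signalling and also serves RNA polymerase III, measured 7.17 ± 0.13 (SD, n = 4).

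Of the opioid receptors, Oprl1, the receptor for nociceptin, was detected at 6.76 ± 0.15 (SD, n = 4), and Oprd1, Oprm1 and Oprk1 had means of 5.19, 6.05 and 4.67. Of the somatostatin receptors, Sstr3 measured 6.41 ± 0.33 and Sstr4 6.19 ± 0.23 (SD, n = 4), close to the floor, and Sstr1, Sstr2 and Sstr5 had means of 4.78, 5.71 and 5.70. Sstr2 passed the floor in tumour 4, at 6.38, and Oprm1 in tumour 4, at 6.37, and narrowly in tumour 3, at 6.17. The floor is common to all arrays. The medians of the smell and pheromone receptor genes were 3.85, 3.95, 4.10 and 4.10 log2 units in tumours 1 to 4. The tachykinin receptors Tacr1, Tacr2 and Tacr3 had means of 5.37, 4.44 and 4.78. A stricter floor of 7.14 log2 units, from the 99th percentile of those silent genes, was passed by 2 of the 28, Adcyap1r1 and Crcp.

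**Figure D4:**
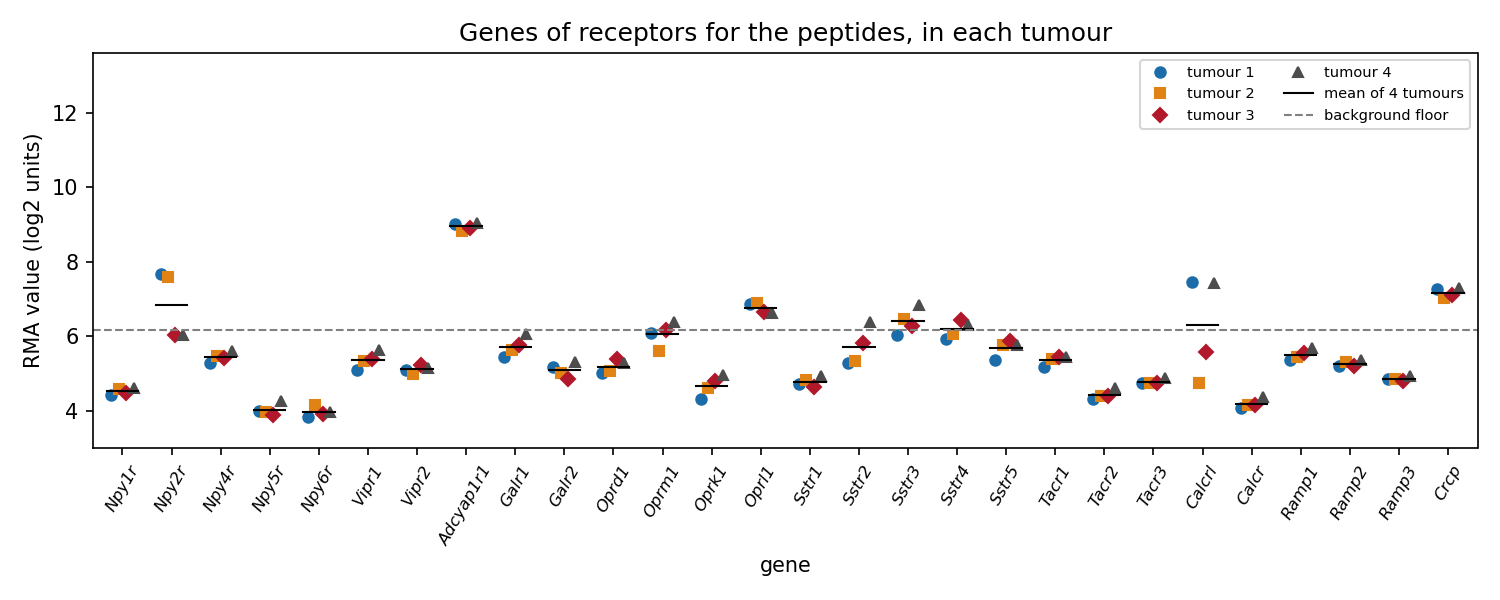
Each point is the RMA value (vertical axis, log2 units) of a receptor gene or receptor partner (horizontal axis) in 1 tumour, with bars for the mean of 4 tumours and a dashed line for the floor of 6.17. Adcyap1r1 is high and steady near 8.95, Npy2r and Calcrl split the tumours into pairs, and most others lie under the floor.

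Of 16 listed genes of peptide processing, 15 were measured and 12 of these were detected, against 40.5% of all genes. Pam, which amidates the end of peptides such as neuropeptide Y, VIP, PACAP and galanin, measured 9.58, 9.13, 10.03 and 9.66 log2 units in tumours 1 to 4, with the maximum in tumour 3. Cpe, the carboxypeptidase that trims basic residues, measured 9.25, 8.68, 8.81 and 8.87, and Pcsk6, a convertase, 6.98, 6.41, 6.43 and 6.71, both highest in tumour 1. Pcsk1n, an inhibitor of the neuroendocrine convertase that Pcsk1 encodes, was steady at 7.82 ± 0.08 (SD, n = 4). Pcsk1 itself lay under the floor at 4.43 ± 0.18 (SD, n = 4). Of the 12 detected genes, 2 were highest in tumour 3 and 7 in tumour 1, where 46.6% of all detected genes were highest. Scg5, counted in tumour 1 and named after its values were seen, had the same value, 7.98, in tumours 1 and 3.

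Dense core granule genes were detected in 16 of 18 cases, against 40.5% of all genes. Ptprn, a membrane protein of these granules, measured 9.28, 8.55, 10.08 and 9.41 log2 units in tumours 1 to 4 and had its maximum in tumour 3, as did Vgf. Slc18a1, a vesicular monoamine transporter, went against them, with 7.08, 6.39, 6.01 and 6.78 and its lowest value in tumour 3. Dnajc5, a chaperone of secretory vesicles, was steady at 8.62 ± 0.09 (SD, n = 4). Of the 16, 7 were highest in tumour 3, where 11.0% of all detected genes were: Chgb, Vgf, Ptprn, Ptprn2, Syt4, Syt7 and Slc18a2. Except for Ptprn and Vgf, these were named after their values were seen. Scg2, secretogranin, also named so, was highest in tumour 4, at 9.27, so the granule genes did not share 1 order either.

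**Figure D5:**
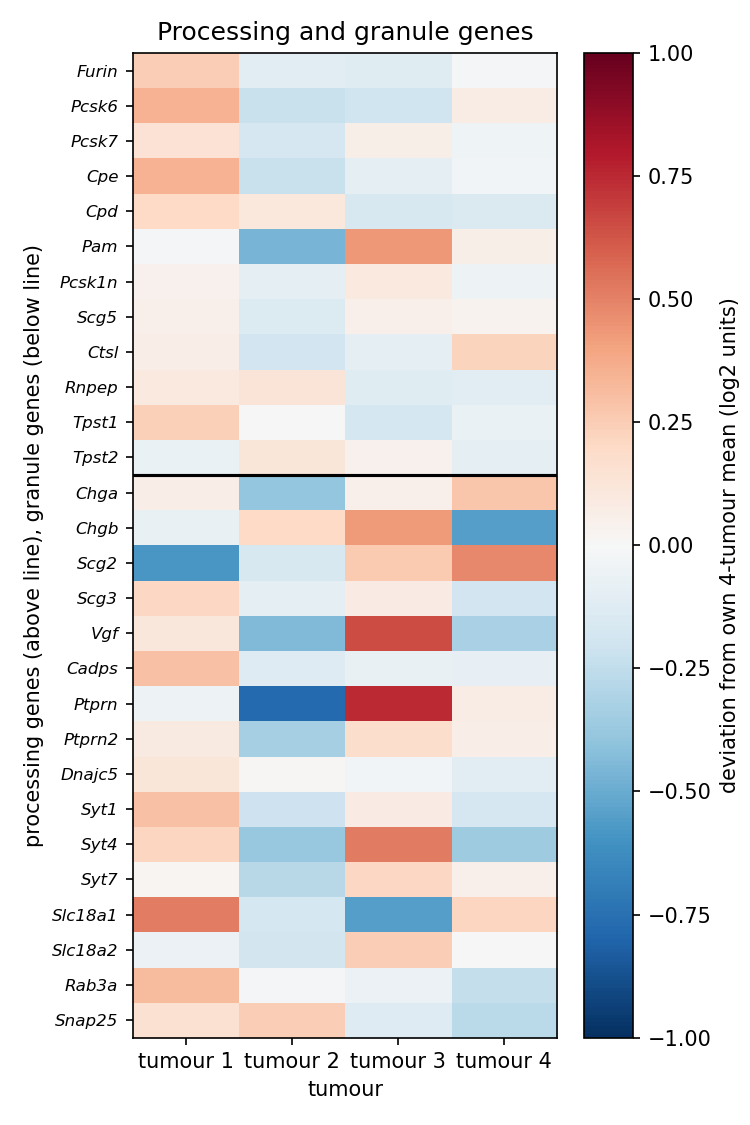
Colours give the deviation of each detected processing gene (above the line) and granule gene (below the line) from its own 4-tumour mean, in log2 units, in tumours 1 to 4. In tumour 3, Ptprn, Vgf, Syt4, Chgb and Pam are high and Slc18a1 is low.

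Genes that are known to regulate these precursors were also read. Cytokines that signal through the shared receptor chain Il6st, and above all leukaemia inhibitory factor, can induce VIP and galanin in sympathetic neurons. Of their own genes that were measured, all but 1 were under the floor. Lif measured 5.58 ± 0.18, Il6 3.18 ± 0.08, Osm 5.46 ± 0.04 and Clcf1 5.56 ± 0.20 (SD, n = 4). Ctf1, cardiotrophin, measured 6.44 ± 0.09 (SD, n = 4). The receptor chains were detected. Lifr measured 7.96, 7.60, 7.34 and 7.46 log2 units in tumours 1 to 4 and Il6st 8.13, 7.71, 7.53 and 7.76, both lowest in tumour 3, and Cntfr was steady at 9.01 ± 0.03 (SD, n = 4). Stat3, the transcription factor downstream, measured 8.62, 8.31, 8.82 and 8.26, with higher values in tumours 1 and 3. The list held 16 genes, of which 14 were measured. Of these, 7 were detected, against 40.5% of all genes. Among the 7, 0 ranged over 1 log2 unit, against 4.26% of all detected genes.

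Of the cyclic AMP and CREB list, 16 of 18 were detected, against 40.5% of all genes. Adcy8, an adenylyl cyclase stimulated by calcium, measured 7.40, 6.62, 8.45 and 7.67 log2 units in tumours 1 to 4, with the maximum in tumour 3, and was the 1 member to range over 1 log2 unit. Adcy5, another cyclase, measured 6.42, 5.59, 6.09 and 6.56, and Prkar2b, a regulatory subunit of protein kinase A, 8.29, 8.55, 8.26 and 7.91. Crtc3, a CREB coactivator, was steady at 7.11 ± 0.08 (SD, n = 4). Of the injury and activity list, 8 of 16 were detected, against 40.5% of all genes, and 4 of these were highest in tumour 3, against 11.0% of detected genes. They included Nr4a1 and Atf3, a factor of injured neurons, at 6.90, 6.69, 7.15 and 6.75, while Jun, its partner, measured 8.16, 7.67, 8.15 and 7.86. Jund was steady at 7.75 ± 0.08 (SD, n = 4). Npas4, a factor induced by calcium entry in neurons and named after its values were seen, measured 5.15, 5.05, 6.68 and 5.32, above the floor in tumour 3 alone.

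The tissue label names a neck muscle, but 0 of 12 skeletal muscle genes passed the floor, whereas all 16 measured sympathoadrenal markers did. Of all genes 40.5% passed it, the share to set beside each count of detected genes in this paragraph. Th, the first enzyme of noradrenaline synthesis, measured 11.88 ± 0.18, and Gata3, a factor of the lineage, 8.05 ± 0.04 (SD, n = 4). Prph, an intermediate filament, varied most, at 9.32, 8.06, 8.18 and 7.51 log2 units in tumours 1 to 4, followed by Slc6a2, the noradrenaline transporter, at 8.22, 7.55, 7.01 and 7.84, and Gata2 at 8.77, 8.02, 8.29 and 9.07. The chromaffin list had 8 of 10 detected, Pnmt, the adrenaline-forming enzyme, being under the floor at 4.35 ± 0.34 (SD, n = 4). This list holds Npy, Cartpt and Penk themselves. Of cholinergic markers, 6 of 9 were detected. Slc18a3, the vesicular acetylcholine transporter, measured 6.98, 7.34, 7.49 and 6.51, and Gfra2, a receptor for the growth factor neurturin, 7.23, 6.21, 6.29 and 5.84, while Chat, the acetylcholine-forming enzyme, lay under the floor at 5.12 ± 0.10 (SD, n = 4). Ache, acetylcholinesterase and named after its values were seen, measured 6.62, 6.29, 6.69 and 6.50, in the same order of tumours as Vip but over a range of 0.40 log2 units. Tbx20 measured 7.46, 7.30, 6.82 and 6.62, and Nos1 6.96, 7.01, 7.29 and 7.30. Slc18a3, Gfra2, Tbx20, Nos1 and Ret, the other detected markers of this list, had other orders than Vip.

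The RNA of markers of other cell types differed between the tumours too. Each count of detected genes in this paragraph stands beside the 40.5% of all genes that passed the floor. Macrophage markers were detected in 10 of 13 cases. Among those 10, 9 were lowest in tumour 3, where 36.0% of all detected genes were lowest. The mean over the 10 was 7.98, 7.98, 7.36 and 7.96 log2 units in tumours 1 to 4, with Lyz2 at 9.41 in tumour 3 and 10.04 to 10.49 in the others. Schwann cell markers had 3 of 9 detected, with a mean over the 3 of 9.35, 8.75, 7.97 and 8.69. Fabp7, the widest, measured 9.54, 8.49, 6.49 and 8.32, Gfra3, a neurotrophic factor receptor, 10.62, 10.43, 9.73 and 10.51, and Pmp22, a myelin protein, 7.90, 7.31, 7.69 and 7.24, so that Fabp7 and Gfra3 were lowest in tumour 3 and Pmp22 was not. Sox10, the defining factor, measured 5.64 ± 0.19 (SD, n = 4), under the floor. Fibroblast markers had 8 of 10 detected, with means of 8.10, 7.25, 7.45 and 7.01, and Dcn, decorin, at 8.26, 6.36, 6.55 and 6.17. Cell cycle genes, 14 of 14 detected, averaged 9.39, 9.53, 9.03 and 8.97. The part of these shifts in the neuropeptide result was not tested. Endothelial markers had 2 of 9 detected, enteric neuron markers 4 of 7, lymphocyte markers 0 of 8 and thyroid C cell and pancreas markers 0 of 7.

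Of the model's own genes, Alk measured 8.43, 7.73, 8.10 and 7.91 log2 units in tumours 1 to 4, and mouse Mycn 6.60, 6.01, 6.46 and 6.89. Neither followed Gal or Npy, while Alk, like Vip, was higher in tumours 1 and 3, by far smaller steps. Stat6 measured 5.83 ± 0.07 (SD, n = 4), under the floor, and since the deleted part of the gene and the part read by its probes are not known here, this does not check the genotype. Human MYCN makes up the transgene, and how far the mouse probes pick it up is unknown.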

How the data were processed

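Per the labels, total RNA of 4 tumours was hybridised to Affymetrix arrays, each tumour to its own. The deposited values are 1 per probe set and tumour for 41345 probe sets. The submitters' processing notes name RMA and Partek, with no versions or settings; the log base is not stated, and the deposited values (2.47 to 13.6) are read as log2. They were used as the authors normalized them. Array medians ran from 5.15 to 5.29, and no pair of arrays shared over 0.22% of values exactly. The number of arrays limits the precision. Nothing states that each tumour had an animal of its own, so the spread may be partly technical.

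Genes came from the platform annotation: 23521 probe sets had 1 gene, 1814 had several and 16010 were not listed there. Of the probe sets with 1 gene, 23328 were matched by Entrez identifier to the RefSeq table of GRCm38.p6, whose symbols were used. The probe set with the highest mean stood for a gene. The 10 neuropeptide genes and all gene lists were chosen with earlier results of these data known. With 1 group there is no contrast and no p-value. The SD is over tumours and also holds array error, since no tumour was measured again. The rule for naming genes took the 10, their receptors and the 3 nearest genes of each variable precursor. It also took the detected members of each list with the widest range (up to 3) and the narrowest (1). Not every gene that it took is named in the text. Outside this rule, and named after their values were seen, were Lif, Il6, Osm, Clcf1, Ctf1, Pnmt, Chat, Sox10, Scn10a, Trpv1 and Pcsk1, besides those the text marks. Dixon's ratio divides the distance of the outermost tumour from the next by the range, and was set against its 95% critical value for 4 samples. The range, Dixon and likeness steps were tested on simulated data. Alternatives were the floor, the probe set rule, further normalization, the range threshold and each tumour left out. Python 3.11.15, pandas 2.3.3 and numpy 2.4.6 were used.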

Additional observations from a re-analysis of the deposited data

Results flagged for a closer look

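Gal in tumour 3 stood far from the other three, with a Dixon ratio of 0.931, past the 95% critical value for 4 samples. It was the 1 gene past it among 16 examined, the 9 measured neuropeptide genes and the 7 detected genes of the receptor list. Chance flags about 1 in 20 such groups, and 3.83% of all detected genes passed. Gal had drawn attention by its range beforehand, so this repeats a known pattern.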

How the results depend on the processing

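The 5 detected neuropeptide genes kept their maximum in tumour 3 after further quantile normalization (14.9% of detected genes highest there) and with arrays shifted to a common median (7.75%), with Cartpt 0.016 and 0.037 log2 units above tumour 4. Each had 1 probe set, so averaging probe sets could not change them. Orders below the maximum did not all hold. Further quantile normalization put Adcyap1 lowest in tumour 1, at 9.63 log2 units against 9.65 in tumour 4. It also put Gal in tumour 2 (7.14) above tumour 1 (7.12). Lowering the floor to the median of the silent genes let 9 neuropeptide genes and 27 genes of the receptor list pass. It also let 8 of 8 lymphocyte markers and 11 of 12 skeletal muscle markers pass, so those counts set the neuropeptide genes apart from nothing. Raising the floor to the 99th percentile let 5 neuropeptide genes and 2 genes of the receptor list pass. The shares of all genes past these 2 floors are not given here. A range of 0.5 log2 units made 5 neuropeptide genes variable, and 35% of all detected genes. Leaving out 1 tumour in turn gave 2 to 3 variable neuropeptide genes, where 2.48% to 3.03% of detected genes were variable. It gave 5 to 8 detected genes of the receptor list, and the share of all genes detected is not given here. Gal no longer ranged over 1 log2 unit without tumour 3 (0.18), nor Npy without tumour 4 (0.48); the ranges of Adcyap1 without tumour 3 (0.37), Penk without tumour 1 (0.28) and Sst without tumour 2 (0.21) also moved by more than 1 SD. The remaining 121 of 126 levels and ranges moved by less. No paired analysis was possible because the samples form 1 group. Each tumour has 1 array, so array error and tumour differences cannot be told apart, and signals under the floor have no order.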

Other observations

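Peptidases that break down neuropeptides were read as well, and 8 of 12 measured genes were detected, against 40.5% of all genes. Among the 8, 0 had a range of 1 log2 unit, against 4.26% of all detected genes. Prep, prolyl endopeptidase, measured 9.69, 9.80, 8.88 and 8.95 log2 units in tumours 1 to 4, and Ide, insulin-degrading enzyme, 8.88, 8.96, 8.40 and 8.33, both higher in tumours 1 and 2. Nln, neurolysin, measured 7.33, 7.08, 6.84 and 6.91, and Thop1, thimet oligopeptidase, was steady at 7.22 ± 0.11 (SD, n = 4). Of the 8, 5 were lowest in tumour 3, where 36.0% of all detected genes were. Dpp4, which trims neuropeptide Y, and Mme, neprilysin, lay under the floor at 4.45 ± 0.27 and 4.75 ± 0.27 (SD, n = 4), both named after their values were seen.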
